A study of Mus musculus with 24 samples.

Results

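Glycolysis, lactate and pyruvate genes were followed as 1 set in mouse reproductive tract epithelial lines and in macrophages. The set held 34 genes, listed by their known place in the pathway: glucose transporters, hexokinases, the enzymes and regulators of upper and lower glycolysis, lactate dehydrogenases and lactate carriers, the kinases and subunits of pyruvate dehydrogenase, and the enzyme at the entry of the pentose phosphate pathway. Of these, 30 had a probe set that named that gene alone, among 19938 genes in all. Gpi1, Eno1, Gapdh and G6pdx had none and were not analysed here.

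The study measured RNA on 24 microarrays, 4 in each of 6 groups, and asked how 3 kinds of cell respond to an inflammatory milieu like that of a genital Chlamydia infection. C57epi.1 is 1 epithelial line from the upper reproductive tract of the C57BL/6 strain, and Bm12.4 is 1 such line from B6(C)-H2-Ab1bm12/KhEgJ mice, which carry a mutant MHC class II gene. The macrophages were grown from C57BL/6 femur bone marrow with GM-CSF. Each kind of cell was given inflammatory supernatant or RPMI medium alone, here called media. The supernatant made up 33% of the volume, was conditioned by a Chlamydia-specific CD4 T cell clone on infected epithelial cells, and was brought to 4 ng/ml interferon-gamma. All cells were kept with 10% fetal bovine serum, and no time of exposure is given in the sources used here.

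Glycolysis splits glucose into pyruvate and yields ATP and building blocks without oxygen. Lactate dehydrogenase turns pyruvate into lactate, which leaves or enters the cell through monocarboxylate carriers, whereas pyruvate dehydrogenase feeds pyruvate into the citric acid cycle and is switched off by its kinases. In macrophages, interferon-gamma and microbial products are known to raise glucose use, and the transcription factor HIF-1 drives many genes of the pathway.

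Values are log2 levels, so a difference of 1 is a doubling. Medians of the arrays lay between 5 and 5.19, and the highest value was 14.57. No detection p-values were used here, so a gene below the median of its array cannot be told from background, and a fold against such a level may understate the change. Levels of different genes are not compared, because each probe set has its own brightness. The 7 macrophage markers averaged 12.21 to 12.42 on the macrophage arrays and 4.13 to 4.60 on the arrays of the lines. In media, Krt19, a keratin of simple epithelia, averaged 11.32 ± 0.42 for C57epi.1 and 11.77 ± 0.4 for Bm12.4, against 4.32 ± 0.32 in macrophages (SD, n = 4 each). The keratins Krt8 and Krt18 were higher in C57epi.1 than in Bm12.4 on every media array. Their differences were 3.575 and 0.37 (limma, adjusted p = 1.92e-13 and 0.0808). Epcam and Cdh1, adhesion genes of epithelia, read only 3.42 to 4.68 on the arrays of the lines, where 6 stromal markers averaged 10.6 to 12.0. The stromal mean was 10.81 to 10.97 with supernatant in C57epi.1, against 11.14 to 11.99 in media, and its part in the results was not tested. The measured T cell markers averaged 3.70 to 4.49 on all arrays. No label states that the 4 replicates of a group came from separate cultures, and the p-values then cover the spread between arrays only, which may be technical.

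With the supernatant, single isoforms and regulators of the pathway rose or fell in each kind of cell, whereas Aldoa, Tpi1, Pgk1, Pgam1, Pkm and Ldha, core enzymes, were not called in any over all 24 arrays. In macrophages each of these 6 nevertheless had every supernatant array above every media array, by 0.14 to 0.46 on average, and the model of macrophage arrays alone called Tpi1, Pgk1, Pkm and Ldha. In C57epi.1, the glycolytic activator Pfkfb3, the inducible hexokinase Hk2 and Eno2 rose, and the muscle-type isoforms Pfkm and Eno3 fell with Pfkfb4, Pdk2 and Pdha1. The call of Pdk2 was lost in the model of C57epi.1 arrays alone. In Bm12.4 Hk2 rose, and Pfkm, Eno3 and Pdha1 fell, but the model of Bm12.4 arrays alone called none of these. In macrophages, Hk3, Pfkfb3, Pdk3 and the lactate exporter Slc16a3 rose and Ldhb fell.

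A gene was called where its adjusted p was under 0.05 over all 19938 genes. In C57epi.1, 8 of 30 members were called, 3 higher against 8.85% of all genes and 5 lower against 10.4%. For Bm12.4 the count was 4, with 1 higher against 4.54% of all genes and 3 lower against 2.7%. In macrophages 5 were called, 4 higher against 6.13% of all genes and 1 lower against 6.31%. The members' median difference was −0.06 (C57epi.1), −0.05 (Bm12.4) and 0.06 (macrophages), beside −0.05, −0.05 and −0.02 over all genes. With 30 members these counts lie within a few genes of the background, and nothing particular to the set is read from them. In bulk RNA, fewer cells of a type and less RNA per cell cannot be told apart.

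The counts depended on which arrays shared the estimate of spread. In a model of the 8 macrophage arrays alone, 17 members were called, 12 higher against 7.77% of all genes and 5 lower against 9.79%. The limma model of the 8 Bm12.4 arrays alone called 0 members, with 6 at an unadjusted p under 0.05, against 2.88% of all genes higher and 1.06% lower. That of the 8 C57epi.1 arrays called 8 members, 3 higher against 7.71% of all genes and 5 lower against 8.34%. In macrophages, 12 members had all 4 supernatant arrays above all 4 media arrays, against 9.33% of all genes, and 5 had them all below, against 11.3%. The mean of 8 proliferation genes in macrophages was 5.44 to 6.24 with supernatant, against 6.17 to 7.83 in media, and its part in these results was not tested.

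**Figure D1:**
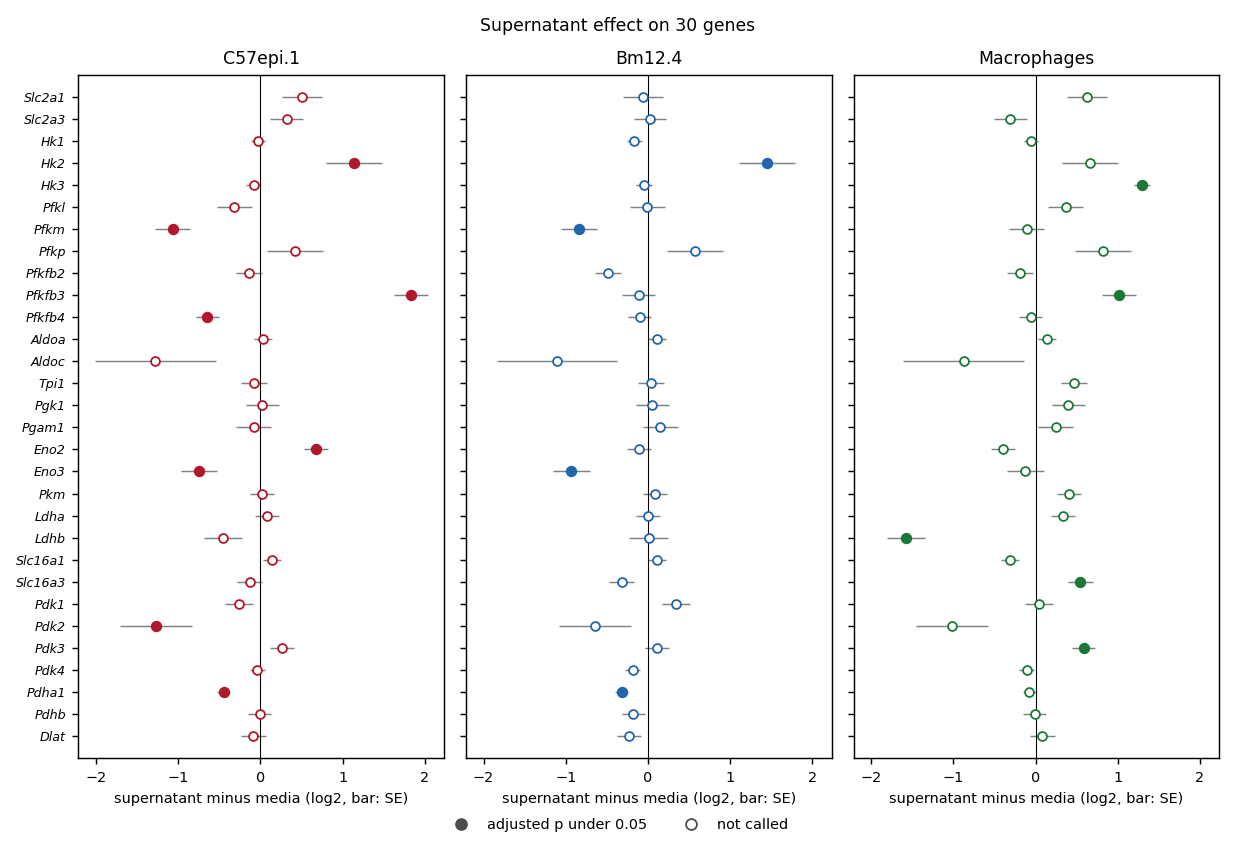
Difference between supernatant and media (log2, mean of 4 arrays minus mean of 4 arrays) for each of 30 genes, ordered along the pathway, in C57epi.1, Bm12.4 and macrophages; bars are standard errors and filled points have an adjusted p under 0.05. Pfkfb3 stood at 1.83 in C57epi.1 and at 1.02 in macrophages but at −0.11 in Bm12.4, and Ldhb at −1.58 in macrophages.

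Promoter windows are shown for 5 members whose transcription HIF-1 is known to drive. RefSeq windows of the mouse build GRCm38.p6, 300 bases around an annotated start, were found for 29 of the 30 measured members, 43 windows in all. The core of the HIF-1 motif was searched as ACGTG and GCGTG on both strands, so that CACGTG counts on each strand. At least 1 match was held by 34 of 43 member windows (79.1%, in 26 genes), against 43.8% of all 32851 windows. The members' windows had a median GC content of 61%, against 52.7% for all windows, and the 5-letter motifs are themselves rich in G and C. A motif of interferon-activated STAT factors, TTCNNNGAA, was in 4.65% of member windows and 8.3% of all. A match is a description of the letters and no evidence of binding.
The 5 windows read 5′ to 3′ on the strand of the gene as RefSeq gives them, with matches of ACGTG or GCGTG in capitals. Slc2a1 lies at chr4:119108495-119108794 on the plus strand, Hk2 at chr6:82774405-82774704 on the minus strand, Pfkfb3 at chr2:11502041-11502340 on the minus strand, Pgk1 at chrX:106186850-106187149 on the plus strand and Ldha at chr7:46845554-46845853 on the plus strand. Pfkfb3 and Ldha had 2 windows each, and the one with more matches is given.
Slc2a1: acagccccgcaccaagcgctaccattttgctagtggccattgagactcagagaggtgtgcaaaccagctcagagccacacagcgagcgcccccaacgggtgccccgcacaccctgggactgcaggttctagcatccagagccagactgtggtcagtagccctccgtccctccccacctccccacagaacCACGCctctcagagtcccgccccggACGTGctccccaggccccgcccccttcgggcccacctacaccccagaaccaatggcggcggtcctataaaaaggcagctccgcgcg
Hk2: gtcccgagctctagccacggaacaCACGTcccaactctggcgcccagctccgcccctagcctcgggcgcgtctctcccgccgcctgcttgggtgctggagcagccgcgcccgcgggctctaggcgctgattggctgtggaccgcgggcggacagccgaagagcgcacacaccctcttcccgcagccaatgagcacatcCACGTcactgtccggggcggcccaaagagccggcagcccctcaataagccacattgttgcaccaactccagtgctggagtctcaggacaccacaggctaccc
Pfkfb3: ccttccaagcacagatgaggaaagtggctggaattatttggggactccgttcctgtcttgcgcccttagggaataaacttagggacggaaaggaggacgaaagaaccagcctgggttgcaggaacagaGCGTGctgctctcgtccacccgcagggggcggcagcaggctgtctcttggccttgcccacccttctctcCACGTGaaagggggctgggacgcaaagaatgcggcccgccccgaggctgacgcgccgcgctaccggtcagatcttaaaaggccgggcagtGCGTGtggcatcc
Pgk1: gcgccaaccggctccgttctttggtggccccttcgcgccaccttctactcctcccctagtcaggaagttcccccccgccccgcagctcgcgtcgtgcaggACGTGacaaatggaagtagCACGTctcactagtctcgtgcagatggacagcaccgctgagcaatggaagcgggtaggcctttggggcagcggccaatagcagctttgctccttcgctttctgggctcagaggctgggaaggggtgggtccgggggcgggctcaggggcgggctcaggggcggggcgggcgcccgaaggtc
Ldha: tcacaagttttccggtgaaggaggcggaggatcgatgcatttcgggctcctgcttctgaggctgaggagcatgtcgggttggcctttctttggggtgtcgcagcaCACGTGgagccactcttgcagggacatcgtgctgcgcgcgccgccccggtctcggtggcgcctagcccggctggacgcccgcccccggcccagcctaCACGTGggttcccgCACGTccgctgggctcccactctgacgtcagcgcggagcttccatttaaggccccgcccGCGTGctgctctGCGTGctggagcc
The Ldha window held 7 matches, 5 of ACGTG and 2 of GCGTG. The Pfkfb3 window held 4, and Slc2a1, Hk2 and Pgk1 had 2 each.

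Glucose enters through Slc2a1 (GLUT1), the widespread transporter, and Slc2a3 (GLUT3), one of high affinity. Slc2a1 read 10.77, 12.09, 12.35 and 12.34 in C57epi.1 with supernatant, against 11.7, 10.83, 11.45 and 11.53 in media. Supernatant arrays 2 to 4 lay above every media array, and supernatant array 1 lay below all of them. The difference of 0.51 (SE 0.244, adjusted p = 0.17) was not called. Without that array it was 0.88 (adjusted p = 0.000449), and without it and media array 2, the lowest in media, it was 0.7 (adjusted p = 0.000607). Both arrays were also the low ones of their groups in genes of hypoxia-inducible factor and its targets.

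In Bm12.4, Slc2a1 read 10.23, 10.24, 10.34 and 10.28 with supernatant, against 10.29, 10.58, 10.39 and 10.06 in media, a difference of −0.06 (adjusted p = 0.943). These groups overlapped. In macrophages it read 11.8, 12.04, 11.62 and 11.59 with supernatant, against 11.23, 10.93, 11.2 and 11.21 in media. All supernatant arrays were higher, and the difference of 0.62 (SE 0.244, adjusted p = 0.115) was not called over all 24 arrays but was in the model of the macrophage arrays alone (adjusted p = 0.00267). C57epi.1 stood above Bm12.4 on every array, by 1.05 (SE 0.244, adjusted p = 0.00222) in media and 1.62 (SE 0.244, adjusted p = 1.47e-05) in supernatant. Within replicates 1 and 2 the media difference was 0.83 (adjusted p = 0.141).

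Slc2a3 parted the lines further and was not called for the supernatant. It read 7.4, 7.27, 7.16 and 6.92 in C57epi.1 with supernatant, against 4.49, 4.21, 4.79 and 4.8 in Bm12.4 with supernatant. In media the values were 7.32, 7.28, 6.31 and 6.56 in C57epi.1, against 4.71, 4.43, 4.11 and 4.95 in Bm12.4. Every Bm12.4 array lay below its own array's median, and every C57epi.1 array above all of Bm12.4. The differences were 2.62 (SE 0.198, adjusted p = 4.07e-10) in supernatant and 2.32 (SE 0.198, adjusted p = 3.53e-09) in media, or 6.13-fold and 4.98-fold. Macrophages read 6.65, 6.71, 6.71 and 6.49 with supernatant and 6.79, 6.99, 6.99 and 7.02 in media, within the range of C57epi.1. All supernatant arrays were lower there, at a difference of −0.31 (adjusted p = 0.427), which the model of macrophage arrays alone called (adjusted p = 0.0318). The mean of the lines lay below macrophages at a difference of −1.24 (adjusted p = 1.72e-06) in media.

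Hexokinases trap glucose in the cell as glucose 6-phosphate. Hk2, the inducible form, read 9.37, 10.08, 10.49 and 10.35 in C57epi.1 with supernatant, against 9.35, 8.65, 8.92 and 8.8 in media. The groups did not overlap, though supernatant array 1 and media array 1 were nearly level. The difference of 1.14 (SE 0.341, adjusted p = 0.0199) was a 2.21-fold rise. It lost its call without supernatant array 3, 1.0 (adjusted p = 0.0719), supernatant array 4, 1.05 (adjusted p = 0.0591), or media array 4, 1.1 (adjusted p = 0.0541). It was 0.73 (adjusted p = 0.0819) within replicates 1 and 2 and 1.56 (adjusted p = 6.94e-06) within replicates 3 and 4.

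In Bm12.4, Hk2 read 9.56, 9.37, 8.78 and 9.08 with supernatant, against 8.67, 8.52, 7.0 and 6.81 in media. Every supernatant array was higher, and media arrays 3 and 4 were far below media arrays 1 and 2. The difference of 1.45 (SE 0.341, adjusted p = 0.00824) was a 2.73-fold rise, with 0.87 (adjusted p = 0.0459) within replicates 1 and 2 and 2.03 (adjusted p = 1.54e-06) within replicates 3 and 4. It was not called in the model of the 8 Bm12.4 arrays alone (adjusted p = 0.137).

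In macrophages, Hk2 read 10.51, 10.91, 10.38 and 9.88 with supernatant, against 9.58, 9.58, 9.99 and 9.89 in media. Supernatant array 4 lay within the media range, and the difference of 0.66 (SE 0.341, adjusted p = 0.274) was not called, although the model of macrophage arrays alone called it (adjusted p = 0.0291). The test of a different supernatant effect in the lines and in macrophages gave 0.64 (adjusted p = 0.442). In media, Hk2 was lower in the lines than in macrophages on every array, at a difference of −1.42 (SE 0.295, adjusted p = 0.000292).

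Hk3, a form known from blood cells, showed the widest gap between lines and macrophages among the 30 members. It read 11.35, 11.3, 11.39 and 11.37 in macrophages with supernatant, against 10.11, 10.17, 9.93 and 10.02 in media. The 4 supernatant arrays were tightly grouped above the media arrays, a rise of 1.3 (SE 0.093, adjusted p = 5.16e-10) or 2.45-fold. It read 3.92, 4.2, 4.17 and 4.0 in C57epi.1 with supernatant, against 4.14, 4.25, 4.19 and 4.04 in media, and 4.0, 4.19, 4.37 and 4.16 in Bm12.4 with supernatant, against 4.02, 4.15, 4.34 and 4.4 in media. All 16 values of the lines lay below the array medians. The lines were thus lower than macrophages, with differences of −5.87 (SE 0.081, adjusted p = 1.13e-24) in media and −7.23 (SE 0.081, adjusted p = 2.85e-26) in supernatant, or 58.3-fold and 150-fold. The difference of supernatant effects, lines minus macrophages, was −1.36 (SE 0.114, adjusted p = 2.08e-08), with the lines at a level that cannot be told from background.

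Hk1, the housekeeping form, was measured unclearly. The brightest probe set that named Hk1 alone lists 1 accession and no RefSeq mRNA, and group means on it were all between 12.89 and 13.10, with 0 calls in the 9 comparisons. A second probe set, which lists 8 accessions with a RefSeq mRNA, averaged 9.04 in macrophages with supernatant, against 8.17 in media (SD 0.08 and 0.05, n = 4 each). On it the macrophage difference was 0.87 (SE 0.219, adjusted p = 0.0082), and the lines were lower than macrophages, at −0.84 (SE 0.189, adjusted p = 0.000717) in media and −1.28 (SE 0.189, adjusted p = 4.04e-06) in supernatant. This probe set was looked at after the data were seen.

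Phosphofructokinase is the main control point of glycolysis and comes in liver (Pfkl), muscle (Pfkm) and platelet (Pfkp) forms. Pfkm fell with the supernatant in both lines. It read 8.32, 8.72, 8.68 and 8.85 in C57epi.1 with supernatant, against 9.45, 9.12, 10.05 and 10.21 in media, and all supernatant arrays were lower. Bm12.4 gave 9.44, 9.74, 9.94 and 9.84 with supernatant, against 10.16, 10.27, 10.99 and 10.9 in media, again without overlap. The differences were −1.07 (SE 0.214, adjusted p = 0.000888) and −0.84 (SE 0.214, adjusted p = 0.0148). The call in Bm12.4 was lost without supernatant array 1 (adjusted p = 0.0589), media array 3 (adjusted p = 0.0642) or media array 4 (adjusted p = 0.0562), and in the model of its own arrays (adjusted p = 0.0687).

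In macrophages Pfkm read 7.46, 7.52, 7.15 and 7.21 with supernatant, against 7.16, 7.53, 7.71 and 7.38 in media, which overlapped (−0.11, adjusted p = 0.871). Every array of the lines lay above every macrophage array, by 2.7 (SE 0.185, adjusted p = 1.46e-11) in media and 1.86 (SE 0.185, adjusted p = 1.01e-08) in supernatant, or 6.49-fold and 3.62-fold. The test of unlike supernatant effects in the lines and in macrophages gave −0.84 (adjusted p = 0.0501), just short of the threshold. It passed without any 1 of 6 arrays, with adjusted p from 0.0133 without C57epi.1 media array 2 to 0.0489 without Bm12.4 supernatant array 3. C57epi.1 was lower than Bm12.4 at a difference of −1.1 (SE 0.214, adjusted p = 0.000293) in supernatant.

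Pfkl and Pfkp were higher in C57epi.1 than in Bm12.4. In supernatant Pfkl read 9.27, 10.04, 10.18 and 10.22 in C57epi.1, against 8.55, 8.81, 8.71 and 8.93 in Bm12.4. It read 10.36, 9.63, 10.45 and 10.53 in C57epi.1 media, against 9.09, 9.15, 8.53 and 8.27 in Bm12.4 media. No array of C57epi.1 overlapped with Bm12.4 under the same condition, and the differences were 1.18 (SE 0.211, adjusted p = 0.000114) in supernatant and 1.48 (SE 0.211, adjusted p = 8.38e-06) in media. In macrophages Pfkl read 10.29, 10.37, 10.19 and 10.23 with supernatant, against 9.8, 9.78, 10.1 and 9.93 in media, all higher with supernatant but not called (0.37, adjusted p = 0.346).

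Pfkp read 10.74, 9.5, 10.89 and 10.96 in C57epi.1 media, against 10.01, 10.07, 8.51 and 8.57 in Bm12.4 media. C57epi.1 media array 2 and Bm12.4 media arrays 3 and 4 stood low in their groups. The difference of 1.23 (SE 0.341, adjusted p = 0.00892) was 0.08 (adjusted p = 0.934) within replicates 1 and 2 and 2.39 (adjusted p = 1.01e-09) within replicates 3 and 4. With supernatant Pfkp read 10.17, 11.09, 11.19 and 11.31 in C57epi.1, against 10.27, 10.03, 9.5 and 9.64 in Bm12.4, overlapping at array 1 of each. That difference of 1.08 (SE 0.341, adjusted p = 0.0179) lost its call without supernatant array 3 or 4 of C57epi.1 (adjusted p = 0.0536 and 0.061) or of Bm12.4 (adjusted p = 0.0626 and 0.0525). In macrophages Pfkp read 10.95, 11.01, 10.81 and 10.71 with supernatant, against 10.12, 10.03, 10.03 and 10.02 in media. These groups did not overlap, and the difference of 0.82 (SE 0.341, adjusted p = 0.142) was called in the model of macrophage arrays alone (adjusted p = 4.71e-05).

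Pfkfb3 makes fructose 2,6-bisphosphate, the strongest known activator of phosphofructokinase, and is a known inflammatory and hypoxic target. It read 8.29, 8.21, 8.39 and 8.25 in C57epi.1 with supernatant, against 7.05, 6.86, 5.92 and 5.99 in media. The supernatant arrays were tightly grouped above the media arrays, of which 3 and 4 were lowest. The rise of 1.83 (SE 0.203, adjusted p = 6.53e-07) was 3.56-fold, with 1.3 (adjusted p = 0.000197) within replicates 1 and 2 and 2.37 (adjusted p = 6.22e-09) within replicates 3 and 4.

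In Bm12.4, Pfkfb3 read 8.08, 7.96, 7.77 and 7.54 with supernatant, against 7.87, 8.2, 7.94 and 7.79 in media. The groups overlapped, and the difference was −0.11 (SE 0.203, adjusted p = 0.843). In macrophages it read 9.33, 9.78, 9.46 and 9.38 with supernatant, against 8.19, 8.24, 8.71 and 8.75 in media, a rise of 1.02 (SE 0.203, adjusted p = 0.00109) without overlap. The supernatant effect was larger in C57epi.1 than in Bm12.4 by 1.94 (SE 0.288, adjusted p = 0.000276), and this was called under all 27 alternatives tried. In media the level was lower in C57epi.1 than in Bm12.4 on every array, at a difference of −1.5 (SE 0.203, adjusted p = 4.52e-06). With supernatant all C57epi.1 arrays lay above those of Bm12.4, by 0.45 (adjusted p = 0.112), which was not called. The mean of the lines was below macrophages at a difference of −1.27 (SE 0.176, adjusted p = 1.73e-06) in media and −1.43 (SE 0.176, adjusted p = 2.97e-07) in supernatant.

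Pfkfb4, a related enzyme, read 5.88, 5.93, 5.98 and 5.98 in C57epi.1 with supernatant, against 6.38, 6.26, 6.84 and 6.86 in media, and fell without overlap, at a difference of −0.64 (SE 0.141, adjusted p = 0.00195). Within replicates 1 and 2 its difference was −0.42 (adjusted p = 0.169). It read 6.65, 6.96, 6.84 and 6.59 in Bm12.4 with supernatant, against 6.47, 6.92, 7.05 and 7.0 in media, and 8.94, 8.54, 8.72 and 8.45 in macrophages with supernatant, against 8.75, 8.69, 8.63 and 8.83 in media. Neither of these differences was called. All arrays of the lines lay below those of macrophages, at a difference of −2.0 (SE 0.122, adjusted p = 1.6e-12) in media, or 4.01-fold, and −2.31 (SE 0.122, adjusted p = 1.11e-13) in supernatant. For Pfkfb2, the heart-type enzyme of the family, the supernatant difference in Bm12.4 was −0.49 (adjusted p = 0.073). With the replicate number as a block its adjusted p was 0.0371.

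Aldolase cleaves fructose 1,6-bisphosphate. Aldoc, the brain form, varied most of all members within groups. It read 4.78, 7.0, 6.92 and 7.49 in C57epi.1 with supernatant, against 6.91, 5.31, 9.5 and 9.58 in media. Bm12.4 gave 4.81, 5.77, 5.81 and 5.77 with supernatant, against 5.49, 5.63, 8.06 and 7.41 in media. Media arrays 3 and 4 were the high ones in both lines, and the differences of −1.28 (SE 0.733, adjusted p = 0.274) and −1.11 (SE 0.733, adjusted p = 0.485) were not called. Without C57epi.1 media array 2 that in C57epi.1 was −2.12 (adjusted p = 0.0211).

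Macrophages read 9.06, 9.23, 8.98 and 9.03 for Aldoc with supernatant, against 9.77, 10.04, 9.97 and 10.02 in media. All were lower with supernatant, at −0.88 (SE 0.733, adjusted p = 0.589), and called with the macrophage arrays alone (adjusted p = 4.24e-05). The lines lay below macrophages on every array of the same condition, at a difference of −2.71 (SE 0.635, adjusted p = 0.000969) in media and −3.03 (SE 0.635, adjusted p = 0.000303) in supernatant. Aldoa, the widespread form, differed by at most 0.14 with supernatant in any cell and was not called. It was lower in the lines than in macrophages at −0.55 (adjusted p = 4.17e-05) in media and −0.62 (adjusted p = 7.93e-06) in supernatant, and neither was called after quantile normalization, at −0.13 (adjusted p = 0.243) and −0.2 (adjusted p = 0.0801).

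**Figure D2:**
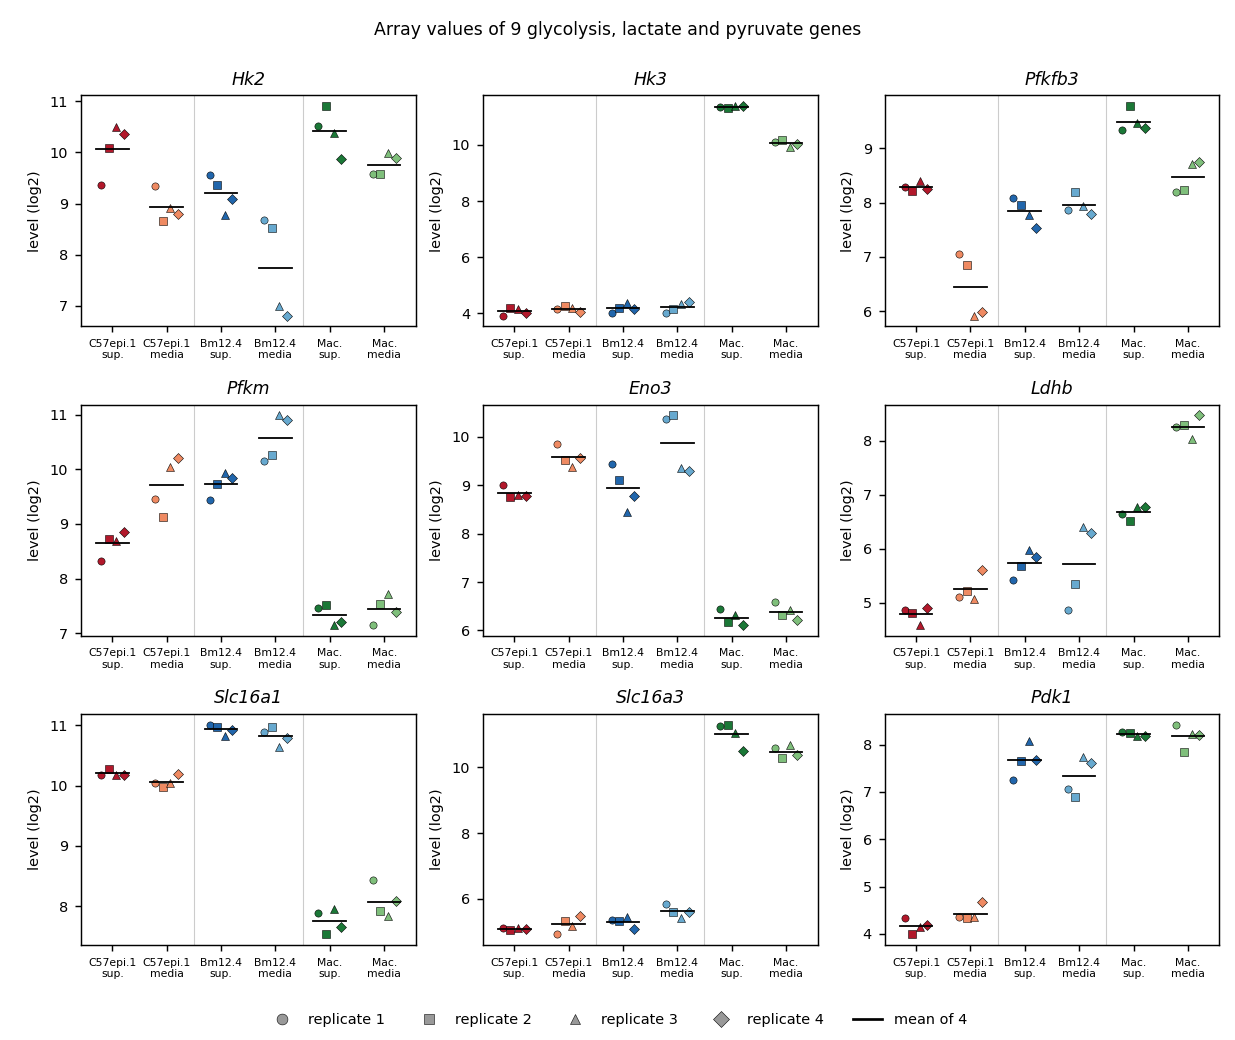
Log2 level of 9 members on each of the 24 arrays, with supernatant (sup.) left of media for C57epi.1, Bm12.4 and macrophages (Mac.); symbols mark replicate numbers 1 to 4 and lines the mean of 4 arrays. Hk3 and Slc16a3 stood near 4 and 5 in both lines and above 9 in macrophages, and Pdk1 lay between 3.99 and 4.67 in C57epi.1.

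The trunk of lower glycolysis, from triose phosphate to pyruvate, gave no call for the supernatant. Tpi1, Pgk1, Pgam1 and Pkm code for triosephosphate isomerase, phosphoglycerate kinase, phosphoglycerate mutase and pyruvate kinase. Their differences ran from −0.08 to 0.02 in C57epi.1, from 0.04 to 0.15 in Bm12.4 and from 0.24 to 0.46 in macrophages, and none was called among 12 tests. In macrophages all 4 had every supernatant array above every media array, and the model of macrophage arrays alone called Tpi1 (0.46, adjusted p = 0.0048), Pgk1 (0.4, adjusted p = 0.0263) and Pkm (0.41, adjusted p = 0.00467). Pgk1 and Pgam1 had 3 probe sets each, and both genes have close copies in the genome, so their values are uncertain in that respect.

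Between the lines, these 4 genes were higher in C57epi.1 in media, by 0.69 (adjusted p = 0.00184) for Tpi1, 0.74 (adjusted p = 0.00763) for Pgk1, 0.7 (adjusted p = 0.0155) for Pgam1 and 0.86 (adjusted p = 0.000107) for Pkm. Pgk1 read 12.86, 12.52, 13.08 and 13.13 in C57epi.1 media, against 12.69, 12.59, 11.71 and 11.64 in Bm12.4 media. The lines were close on arrays 1 and 2 and lay apart on arrays 3 and 4, with differences of 0.05 (adjusted p = 0.915) and 1.43 (adjusted p = 1.39e-07). Within replicates 1 and 2 none of the 4 was called, with 0.26 (adjusted p = 0.442) for Tpi1, 0.12 (adjusted p = 0.756) for Pgam1 and 0.38 (adjusted p = 0.073) for Pkm. Pgam1 also lost its call without Bm12.4 media array 3, 0.52 (adjusted p = 0.0802), or 4, 0.51 (adjusted p = 0.082).

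Enolase makes phosphoenolpyruvate. Eno3, the muscle form, fell in both lines. It read 9.01, 8.76, 8.81 and 8.77 in C57epi.1 with supernatant, against 9.86, 9.53, 9.38 and 9.57 in media, with no overlap. In Bm12.4 it read 9.44, 9.11, 8.44 and 8.77 with supernatant, against 10.38, 10.45, 9.36 and 9.3 in media, where arrays 1 and 2 were higher than arrays 3 and 4 under both conditions and the groups overlapped. The differences were −0.75 (SE 0.222, adjusted p = 0.0194) and −0.93 (SE 0.222, adjusted p = 0.00898). The call in C57epi.1 was lost without supernatant array 2 (adjusted p = 0.0506) or media array 1 (adjusted p = 0.0586). In Bm12.4 it was lost in the model of its own arrays (adjusted p = 0.207), with −1.14 (adjusted p = 0.000818) within replicates 1 and 2 and −0.73 (adjusted p = 0.00227) within replicates 3 and 4.

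Macrophages read 6.44, 6.18, 6.31 and 6.11 for Eno3 with supernatant, against 6.58, 6.32, 6.42 and 6.22 in media (−0.13, adjusted p = 0.853). Both lines exceeded them on every array, by 3.34 (SE 0.192, adjusted p = 5.68e-13) in media and 2.63 (SE 0.192, adjusted p = 4.54e-11) in supernatant, 10.2-fold and 6.18-fold. Pfkm and Eno3, both muscle forms, were the only glycolytic enzymes among the members that were called higher in the lines in the values as deposited.

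Eno2, the neuronal form, read 5.93, 6.32, 6.33 and 6.11 in C57epi.1 with supernatant, against 5.73, 5.02, 5.63 and 5.62 in media, a rise of 0.67 (SE 0.145, adjusted p = 0.00167) without overlap. Bm12.4 gave 4.0, 4.24, 4.33 and 4.72 with supernatant, against 4.35, 4.38, 4.59 and 4.39 in media, below the array medians and overlapping (−0.11, adjusted p = 0.785). In macrophages it read 5.68, 5.69, 5.48 and 5.49 with supernatant, against 6.13, 5.88, 5.92 and 5.98 in media, all lower with supernatant but not called (−0.39, adjusted p = 0.0868). The mean effect of the 2 lines, which joins 0.67 for C57epi.1 and −0.11 for Bm12.4, exceeded that in macrophages by 0.68 (SE 0.177, adjusted p = 0.0173). This was 0.57 (adjusted p = 0.218) within replicates 1 and 2, no longer called. The effect in C57epi.1 exceeded that in Bm12.4 by 0.78 (SE 0.204, adjusted p = 0.032), a call lost in 9 of 27 alternatives, among them leaving out C57epi.1 supernatant array 2 or 3 (adjusted p = 0.0768 each), Bm12.4 supernatant array 1, 2 or 3 (adjusted p = 0.0574, 0.0675 and 0.0582) or Bm12.4 media array 3 (adjusted p = 0.054). C57epi.1 was higher than Bm12.4 by 1.07 (SE 0.145, adjusted p = 3.96e-06) in media and 1.85 (SE 0.145, adjusted p = 6.64e-10) in supernatant.

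Lactate dehydrogenase is built from A subunits (Ldha), which favour lactate production, and B subunits (Ldhb), known from oxidative tissue. Ldha read 12.7, 13.26, 13.3 and 13.29 in C57epi.1 with supernatant, against 13.1, 12.84, 13.07 and 13.21 in media (0.08, adjusted p = 0.79). It read 12.46, 12.37, 12.25 and 12.2 in Bm12.4 with supernatant, against 12.6, 12.68, 12.04 and 11.94 in media (0.01, adjusted p = 0.993). The groups overlapped in both lines, and C57epi.1 supernatant array 1 was again the low one. In macrophages Ldha read 13.15, 13.18, 13.18 and 13.09 with supernatant, against 12.79, 12.79, 12.85 and 12.84 in media. The groups did not overlap, and the difference of 0.33 (SE 0.145, adjusted p = 0.168) was called with the macrophage arrays alone (adjusted p = 0.00726).

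C57epi.1 held more Ldha than Bm12.4 on every array of the same condition, by 0.74 (SE 0.145, adjusted p = 4e-04) in media and 0.82 (SE 0.145, adjusted p = 0.000101) in supernatant. The media difference was 0.33 (adjusted p = 0.227) within replicates 1 and 2. With supernatant, the lines averaged below macrophages at −0.42 (adjusted p = 0.00723), which turned to 0.03 (adjusted p = 0.886) after quantile normalization. Pkm turned likewise, with −0.36 (adjusted p = 0.0259) as deposited and 0.06 (adjusted p = 0.726) after quantile normalization. Its call was also lost without C57epi.1 supernatant array 1 (adjusted p = 0.0533) or macrophage supernatant array 1 (adjusted p = 0.081) or 2 (adjusted p = 0.0751). These Pkm values are from a probe set without a RefSeq mRNA. On the Pkm probe set that lists one, the difference as deposited was −0.52 (SE 0.153, adjusted p = 0.00627).

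Ldhb fell in macrophages and was not called in either line. It read 6.65, 6.51, 6.78 and 6.77 in macrophages with supernatant, against 8.25, 8.28, 8.03 and 8.47 in media. Every supernatant array lay more than 1 log2 unit below every media array, a difference of −1.58 (SE 0.233, adjusted p = 3.07e-05) or 2.99-fold. It read 4.86, 4.82, 4.59 and 4.91 in C57epi.1 with supernatant, against 5.11, 5.22, 5.07 and 5.6 in media, all lower but not called (−0.46, adjusted p = 0.208). In Bm12.4 it read 5.42, 5.69, 5.98 and 5.85 with supernatant, against 4.86, 5.34, 6.41 and 6.3 in media, where arrays 3 and 4 were high (0.01, adjusted p = 0.993). The effect in the lines minus that in macrophages was 1.36 (SE 0.286, adjusted p = 0.00309). Every C57epi.1 supernatant value lay below the array medians, where a level cannot be told from background, so the fall there may be understated. The lines lay below macrophages on every array, at a difference of −2.77 (SE 0.202, adjusted p = 4.33e-11) in media and −1.41 (SE 0.202, adjusted p = 2.56e-06) in supernatant. C57epi.1 lay below Bm12.4 at a difference of −0.94 (SE 0.233, adjusted p = 0.00298) in supernatant.

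The lactate carriers split by kind of cell. Slc16a3 (MCT4), known as the exporter of glycolytic cells, read 11.25, 11.3, 11.06 and 10.49 in macrophages with supernatant, against 10.6, 10.27, 10.67 and 10.38 in media. Array 4 with supernatant lay within the media range. The rise of 0.55 (SE 0.149, adjusted p = 0.0153) lost its call without supernatant array 1 (adjusted p = 0.0676) or 2 (adjusted p = 0.0738) or media array 2 (adjusted p = 0.0638), and after quantile normalization, at 0.36 (adjusted p = 0.109). Within replicates 3 and 4 it was 0.25 (adjusted p = 0.472), against 0.84 (adjusted p = 0.00342) within replicates 1 and 2.

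For Slc16a3, C57epi.1 read 5.12, 5.06, 5.11 and 5.1 with supernatant, against 4.92, 5.34, 5.17 and 5.48 in media. In Bm12.4 it read 5.35, 5.32, 5.44 and 5.09 with supernatant, against 5.86, 5.61, 5.43 and 5.59 in media. All these values lay near the array medians, and neither difference was called. The lines were lower than macrophages, with differences of −5.06 (SE 0.129, adjusted p = 1.01e-19) in media and −5.83 (SE 0.129, adjusted p = 6.59e-21) in supernatant, or 33.2-fold and 56.7-fold. The difference of supernatant effects was −0.77 (SE 0.182, adjusted p = 0.00799), and −0.53 (adjusted p = 0.055) after quantile normalization. Within replicates 3 and 4 it was −0.48 (adjusted p = 0.19), also not called.

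Slc16a1 (MCT1), the widespread carrier for either direction, ran the other way. With supernatant it read 10.18, 10.28, 10.17 and 10.18 in C57epi.1 and 11.01, 10.97, 10.82 and 10.92 in Bm12.4, against 7.88, 7.53, 7.96 and 7.66 in macrophages. It read 10.05, 9.97, 10.05 and 10.19 in C57epi.1 media and 10.88, 10.97, 10.64 and 10.79 in Bm12.4 media, against 8.43, 7.92, 7.84 and 8.09 in macrophage media. The groups of cells did not overlap, and the lines were higher by 2.37 (SE 0.096, adjusted p = 7.72e-16) in media and 2.81 (SE 0.096, adjusted p = 3e-17) in supernatant, or 5.18-fold and 7.01-fold. The supernatant differences were 0.14 for C57epi.1, 0.11 for Bm12.4 and −0.31 for macrophages, and none was called. That in macrophages passed without media array 3, −0.39 (adjusted p = 0.0309), or supernatant array 3, −0.38 (adjusted p = 0.0353). C57epi.1 was lower than Bm12.4 at a difference of −0.76 (adjusted p = 1.33e-05) in media and −0.73 (adjusted p = 1.69e-05) in supernatant.

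Pyruvate dehydrogenase kinases switch off the entry of pyruvate into the citric acid cycle. Pdk1, a known HIF-1 target, read 4.33, 3.99, 4.14 and 4.2 in C57epi.1 with supernatant, against 4.35, 4.33, 4.35 and 4.67 in media. Bm12.4 gave 7.25, 7.66, 8.07 and 7.68 with supernatant, against 7.07, 6.89, 7.73 and 7.61 in media, and macrophages 8.27, 8.24, 8.18 and 8.19 with supernatant, against 8.42, 7.85, 8.23 and 8.21 in media. C57epi.1 lay below the array medians throughout, and its highest array was over 2 log2 units under the lowest of Bm12.4. C57epi.1 was lower than Bm12.4, with differences of −2.9 (SE 0.17, adjusted p = 4.88e-12) in media and −3.5 (SE 0.17, adjusted p = 1.55e-13) in supernatant. The supernatant effects were −0.26 (adjusted p = 0.353) for C57epi.1, 0.34 (adjusted p = 0.306) for Bm12.4 and 0.04 (adjusted p = 0.948) for macrophages, with no call. Among other members known as HIF-1 targets, Pfkfb3 was likewise lower in C57epi.1 in media, whereas Slc2a1, Hk2, Pgk1 and Ldha were called higher there, none of the 4 within replicates 1 and 2.

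Pdk2 read 4.76, 4.89, 4.41 and 4.73 in C57epi.1 with supernatant, against 5.29, 4.97, 6.9 and 6.69 in media. All supernatant arrays were lower, and media arrays 3 and 4 were well above media arrays 1 and 2. The difference of −1.27 (SE 0.438, adjusted p = 0.0461) lost its call without any 1 of the supernatant arrays or without media array 3 or 4 (adjusted p from 0.0697 to 0.186), and was −0.31 (adjusted p = 0.288) within replicates 1 and 2. It was also not called in the model of its own arrays (adjusted p = 0.0663), after quantile normalization, −1.19 (adjusted p = 0.0691), or with a trended, robust prior, −1.27 (adjusted p = 0.0559). In Bm12.4 it read 6.11, 6.52, 7.21 and 7.05 with supernatant, against 6.22, 6.44, 8.33 and 8.48 in media, with the same split of the media arrays and no call (−0.65, adjusted p = 0.502). In macrophages it read 6.52, 6.62, 6.79 and 6.91 with supernatant, against 7.68, 7.58, 7.8 and 7.86 in media. Those groups lay apart on every array, and the difference of −1.02 (SE 0.438, adjusted p = 0.16) was called with the macrophage arrays alone (adjusted p = 3.47e-05). C57epi.1 was below Bm12.4 at a difference of −2.03 (SE 0.438, adjusted p = 0.000853) in supernatant, on every array. Every C57epi.1 supernatant value of Pdk2 lay below the array medians and cannot be told from background. This gap and the fall in C57epi.1 may thus be understated.

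Pdk3 rose in macrophages, where it averaged 9.03 ± 0.19 with supernatant, against 8.45 ± 0.12 in media (SD, n = 4 each). The rise was 0.58 (SE 0.145, adjusted p = 0.00782), with no overlap. It was 0.48 (adjusted p = 0.0661) within replicates 1 and 2, not called, and 0.69 (adjusted p = 0.000482) within replicates 3 and 4. In media Pdk3 averaged 9.63 ± 0.13 for C57epi.1 and 9.23 ± 0.37 for Bm12.4, and was above macrophages by 0.99 (SE 0.126, adjusted p = 4.88e-07). Pdk4, known from fasting and fat oxidation, was low everywhere. It read 3.15, 3.17, 3.32 and 3.14 in C57epi.1 with supernatant, against 3.13, 3.28, 3.35 and 3.16 in media. It read 3.12, 3.08, 3.18 and 3.42 in Bm12.4 with supernatant, against 3.46, 3.33, 3.51 and 3.25 in media, and 3.32, 3.34, 3.24 and 3.04 in macrophages with supernatant, against 3.16, 3.44, 3.4 and 3.38 in media. All 24 values lay below the array medians, and no comparison called it.

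Of the pyruvate dehydrogenase subunits, Pdha1, the catalytic alpha subunit, fell in both lines. It averaged 10.7 ± 0.02 in C57epi.1 with supernatant, against 11.15 ± 0.06 in media. In Bm12.4 it averaged 10.94 ± 0.2 with supernatant, against 11.26 ± 0.1 in media (SD, n = 4 each). Neither line overlapped between conditions, and the falls were small, with differences of −0.45 (SE 0.079, adjusted p = 0.000249) and −0.32 (SE 0.079, adjusted p = 0.0122). The second lost its call without supernatant array 3, −0.24 (adjusted p = 0.0638), or 4, −0.28 (adjusted p = 0.0519), within replicates 1 and 2, −0.24 (adjusted p = 0.223), and in the model of its own arrays (adjusted p = 0.218). In macrophages the difference was −0.08 (adjusted p = 0.7). The lines exceeded macrophages by 0.97 (SE 0.068, adjusted p = 2.26e-11) in media. Pdhb, the beta subunit, and Dlat, the acetyltransferase, differed with supernatant by −0.23 to 0.08, with no call. Dlat was higher in C57epi.1 than in Bm12.4 by 0.74 (SE 0.151, adjusted p = 0.000628) in media and 0.88 (SE 0.151, adjusted p = 6.58e-05) in supernatant.

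**Figure D3:**
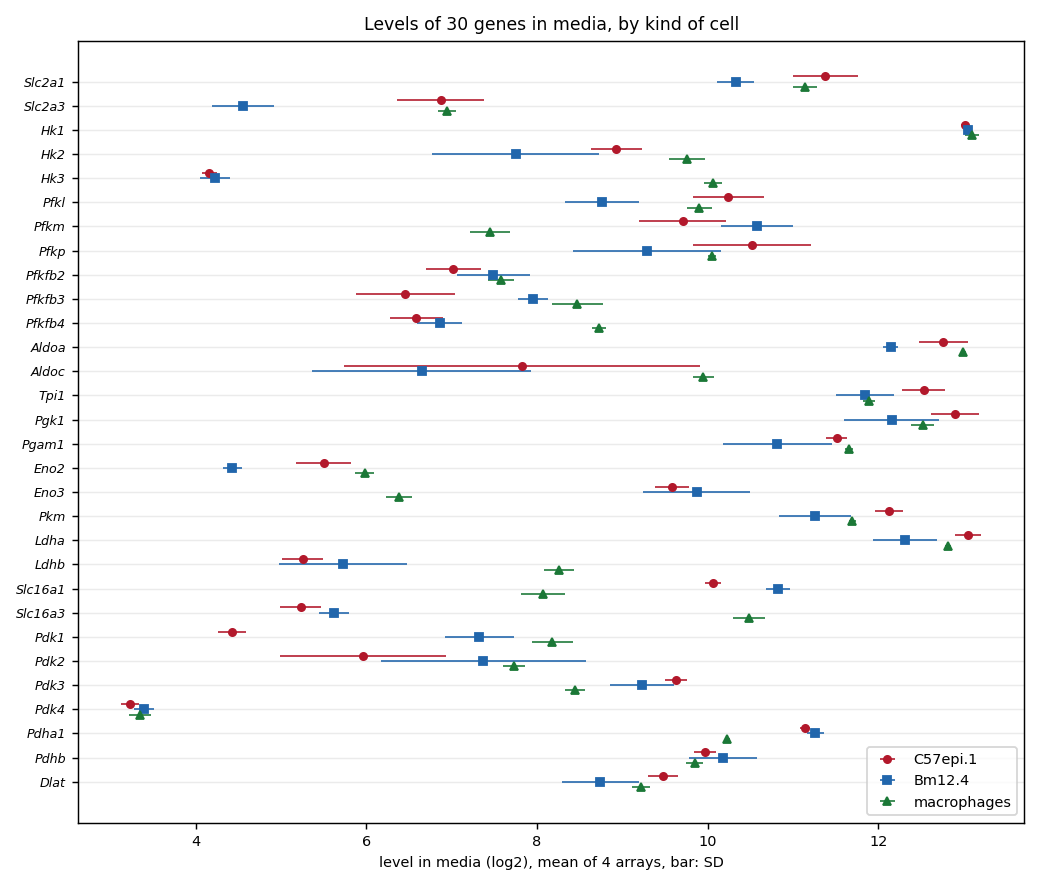
Log2 level of 30 members in media, mean of 4 arrays with bars for the SD, in C57epi.1, Bm12.4 and macrophages, ordered along the pathway. Hk3, Slc16a3 and Ldhb stood highest in macrophages, Pfkm, Eno3 and Slc16a1 stood higher in both lines, and Pdk1 lay at 4.43 in C57epi.1.

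Taking the lines against macrophages as a whole, 18 of 30 members were called in media, 5 higher against 24.7% of all genes and 13 lower against 22.4%. In supernatant 24 were called, 5 higher against 24.3% of all genes and 19 lower against 24.4%. These contrasts take the mean of unlike lines. Of members called lower in supernatant, Slc2a1 averaged 11.89 in C57epi.1, above the 11.76 of macrophages. So did Slc2a3 (7.19 against 6.64), Eno2 (6.172 against 5.585), Pkm (12.14 against 12.1) and Dlat (9.4 against 9.3). Ldha was nearly level in C57epi.1 (13.14 against 13.15), as was Pdk2 in Bm12.4 (6.72 against 6.71). The others called lower averaged below macrophages in both lines. Median differences of the members were −0.31 in media and −0.46 in supernatant, against 0.01 and −0.03 for all genes. After quantile normalization the split in media was 9 higher, against 27.9% of all genes, and 12 lower, against 20.8%. In supernatant it was 7 higher, against 26.3% of all genes, and 13 lower, against 22.1%. Lost under that scaling were Aldoa and Pgam1 in media, and Slc2a1, Hk2, Aldoa, Pgam1, Pkm and Ldha in supernatant. Within replicates 1 and 2, Pgam1 in media and Pfkfb2 and Dlat in supernatant were not called, and within replicates 3 and 4, Pdk2 in media and Eno2 in supernatant. Over the media arrays alone Pgam1 and Pdk2 were not called. The 5 members higher in the lines under both conditions were Pfkm, Eno3, Slc16a1, Pdk3 and Pdha1. In media, leaving out 1 array ended the call of Pgam1 (without Bm12.4 array 3 or 4 or macrophage array 1, 2 or 3, adjusted p from 0.0519 to 0.0655) and of Pdk2 (without macrophage array 3 or 4, adjusted p of 0.0556 and 0.0603). In supernatant this befell Hk2 (without C57epi.1 array 1, Bm12.4 array 3 or macrophage array 1, 2 or 3, adjusted p up to 0.132), Eno2 (without array 1 of any of the 3 cells or macrophage array 2, adjusted p up to 0.0889), Pdk2 (without C57epi.1 array 3, Bm12.4 array 1 or 2 or macrophage array 2, 3 or 4, adjusted p up to 0.084) and Dlat (without C57epi.1 array 4, Bm12.4 array 3 or 4 or macrophage array 2, 3 or 4, adjusted p up to 0.0815). Of genes for proliferation, 8 of 8 were higher in the lines in both conditions, against 24.7% of all genes in media and 24.3% in supernatant, and their part in these differences was not tested.

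Between the lines, 20 of 30 members were called in media, 14 higher in C57epi.1 against 12% of all genes and 6 lower against 12.5%. In supernatant 19 were called, 12 higher against 14.3% of all genes and 7 lower against 15.6%. Median differences were 0.18 in media and 0.46 in supernatant, against −0.01 and 0.00 for all genes. Within replicates 1 and 2 the media count was 12, with 4 higher against 8.29% of all genes and 8 lower against 9.78%. Within replicates 3 and 4 it was 22, with 15 higher against 16.4% and 7 lower against 15.6%. Called higher within both pairs were Slc2a3, Pfkl, Eno2 and Dlat, and lower within both Pfkm, Pfkfb3, Slc16a1, Pdk1 and Pdk2. In the model of the 8 media arrays of the lines alone, 11 were called, 8 higher against 7.36% of all genes and 3 lower against 7.72%, without Hk2, Pfkm, Pfkp, Pfkfb2, Pgk1, Pgam1, Pdk2, Pdk3 and Dlat. In supernatant, Pfkp, Aldoa, Tpi1, Pgk1 and Pdk3 were not called within replicates 1 and 2, nor Pdha1 within replicates 3 and 4 or over the arrays of the lines alone. Leaving out Bm12.4 media array 3 or 4 ended the media calls of Hk2 (adjusted p of 0.0615 and 0.0666), Pgam1, Pdk2, Pdk3 and Pfkfb2. The call of Pdk2 was also lost without C57epi.1 media array 1 or 2 (adjusted p over these 4 arrays from 0.0794 to 0.1). That of Pdk3 was also lost without C57epi.1 media array 1, 3 or 4 (adjusted p over 5 arrays from 0.0633 to 0.188), and that of Pfkfb2 without C57epi.1 media array 2 or 3 (adjusted p over 4 arrays from 0.0621 to 0.161). In supernatant Pdha1 lost its call without Bm12.4 array 1 or 2 (adjusted p of 0.0997 and 0.087). The test of unlike supernatant effects in lines and macrophages called 4 members, Eno2 and Ldhb higher in the lines against 4.27% of all genes, and Hk3 and Slc16a3 lower against 3.81%. With replicate number as a block it called 7, 3 higher against 5.04% and 4 lower against 4.43%. That for C57epi.1 and Bm12.4 called Pfkfb3 and Eno2, higher in C57epi.1 against 1.99% of all genes, and 0 lower against 2.04%.

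The lines also differed in the spread of proliferation genes in media. The mean of 8 such genes was 10.57, 10.47, 9.7 and 9.75 in C57epi.1 media, against 10.18, 10.17, 7.72 and 8.04 in Bm12.4 media, where arrays 3 and 4 were low. Hk2, Pfkp, Pgk1, Pgam1, Pkm and Ldha were lower on arrays 3 and 4 of Bm12.4 media than on arrays 1 and 2. Aldoc, Ldhb, Pfkm, Pfkfb2 and Pdk2 were higher there. The share of all genes split in this way was not counted, so nothing particular to the set is read from it. The part of proliferation in the differences between the lines, and in the Bm12.4 supernatant effects on Hk2 and Pfkm, was not tested.

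A second split ran through C57epi.1. The mean of 22 genes of hypoxia-inducible factor and its targets, with no member among them, was 7.97, 8.95, 9.16 and 9.23 with supernatant, against 8.76, 7.74, 8.92 and 8.89 in media. Supernatant array 1 and media array 2 were the low ones, as for Slc2a1, Aldoa and Ldha. In Bm12.4 the same mean stayed between 8.06 and 8.21 on all 8 arrays, and in macrophages between 8.53 and 8.97. Leaving out both arrays of C57epi.1, 9 members were called there, 4 higher against 8.32% of all genes and 5 lower against 10.6%, with Slc2a1 added to the 8.

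**Figure D4:**
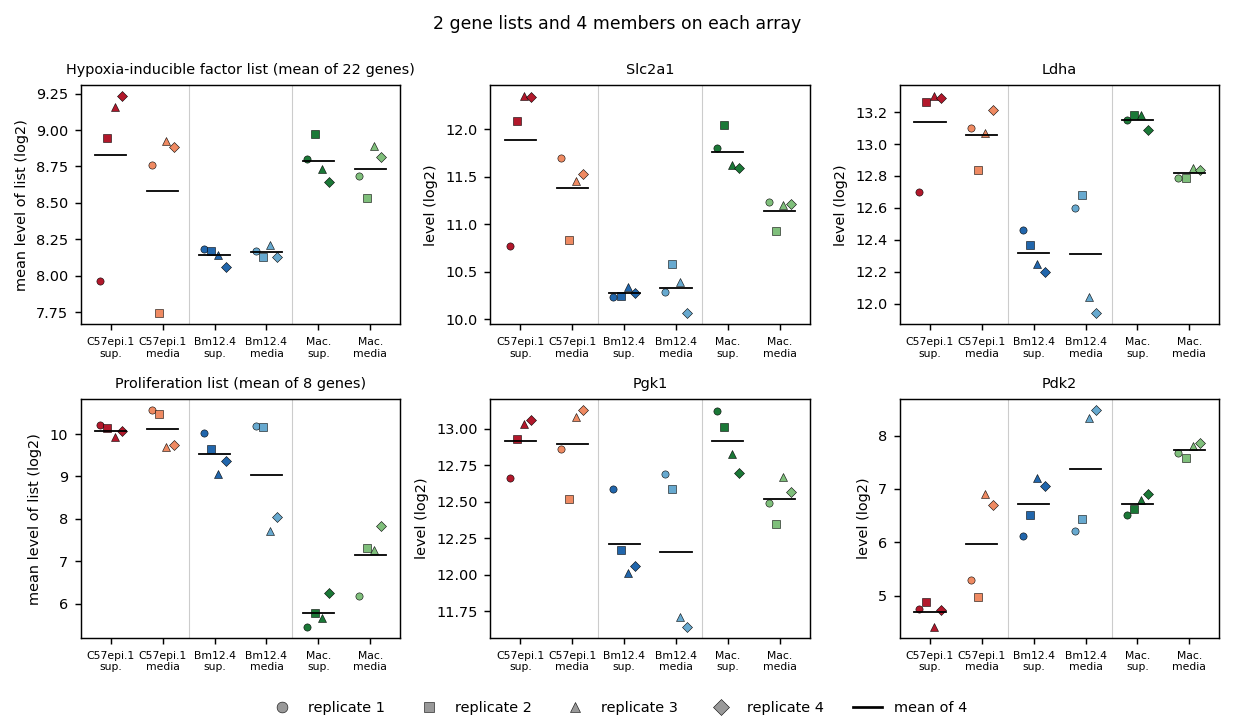
Mean log2 level of the hypoxia-inducible factor list and of the proliferation list, and log2 levels of Slc2a1, Ldha, Pgk1 and Pdk2, on each array, with supernatant (sup.) left of media; symbols mark replicate numbers and lines the mean of 4. C57epi.1 supernatant array 1 and media array 2 were low in the hypoxia list at 7.97 and 7.74, and Bm12.4 media arrays 3 and 4 were low in proliferation at 7.72 and 8.04.

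Other genes of the pathway were read from lists, each by its count of calls. With supernatant, 8.85% of all genes were called higher and 10.4% lower in C57epi.1, 4.54% and 2.7% in Bm12.4, and 6.13% and 6.31% in macrophages, and for lists of about 10 genes a count of 1 or 2 is near these shares. Of 22 genes of hypoxia-inducible factor and its targets, 4 rose in C57epi.1 with supernatant, against 8.85% of all genes, and 2 fell, against 10.4%. The rises were in Ero1a, an oxidase of protein folding (1.62, adjusted p = 0.0164), the growth factor Vegfa (1.03, adjusted p = 0.0206), the factor's own subunit Hif1a (0.92, adjusted p = 0.000167) and the repressor Bhlhe40 (0.82, adjusted p = 0.0111). Supernatant and media arrays overlapped for Ero1a, Vegfa and Bhlhe40, and only Hif1a had every supernatant array above every media array. In Bm12.4, limma called 0 of 22 in either direction, with 3 at an unadjusted p under 0.05. In macrophages 3 rose, against 6.13% of all genes, and 2 fell, against 6.31%, with Hif1a at 1.38 (adjusted p = 7.78e-07) and the prolyl hydroxylases of collagen P4ha2 at 1.11 (adjusted p = 0.0188) and P4ha1 at 0.92 (adjusted p = 0.000336). Epas1, which codes for the alpha subunit of a sister factor of HIF-1, fell, with a difference of −2.48 (SE 0.197, adjusted p = 2.84e-09). The lines and macrophages differed in the effects on Epas1 (2.59, adjusted p = 1.1e-07), P4ha1 (−0.82, adjusted p = 0.0113) and Hif1a (−0.79, adjusted p = 0.00991).

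The list for the citric acid cycle, which pyruvate dehydrogenase feeds, also held the cytosolic forms Aco1, Idh1 and Mdh1. It had 9 of 19 genes lower and 0 higher in C57epi.1, 2 lower in Bm12.4 and 8 lower in macrophages. Cytosolic forms were among those lower, all of them in C57epi.1, Idh1 in Bm12.4, and Aco1 and Idh1 in macrophages. Of all genes, 10.4% were lower for C57epi.1, 2.7% for Bm12.4 and 6.31% for macrophages. The list had medians of −0.26, −0.16 and −0.2 beside the −0.05, −0.05 and −0.02 of all genes. Idh1, the cytosolic isocitrate dehydrogenase, fell in all 3 kinds of cell, with −1.4 (SE 0.196, adjusted p = 1.67e-05) for C57epi.1, −0.77 (SE 0.196, adjusted p = 0.0151) for Bm12.4 and −0.87 (SE 0.196, adjusted p = 0.00324) for macrophages. Fh1, fumarate hydratase, was called lower likewise, at −0.59 (adjusted p = 0.0036) for C57epi.1, −0.49 (adjusted p = 0.0333) for Bm12.4 and −0.7 (adjusted p = 0.000978) for macrophages. In Bm12.4 its supernatant and media arrays overlapped. The mitochondrial Idh2 fell in C57epi.1 (−0.72, adjusted p = 0.000127) and macrophages (−0.8, adjusted p = 3.71e-05).

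Of 10 other glucose transporters, Slc2a8 was lower in C57epi.1 with supernatant (−0.6, adjusted p = 0.0173). Slc2a6 was raised in Bm12.4 by 0.98 (adjusted p = 0.000347) and in macrophages by 0.68 (adjusted p = 0.00747), and the lines lay below macrophages at a difference of −3.64 (adjusted p = 5.22e-16) in media. Of 11 other genes listed around glycolysis, not all of them isoforms of its enzymes, 3 rose in C57epi.1, against 8.85% of all genes. They were Tigar, a fructose-2,6-bisphosphatase (0.88, adjusted p = 0.000508), Pgam5 (0.73, adjusted p = 0.0221) and Adpgk (0.71, adjusted p = 0.0421). The Tigar effect exceeded that in Bm12.4 by 0.95 (adjusted p = 0.0231). Galm, an enzyme that interconverts glucose anomers, fell in macrophages (−0.44, adjusted p = 0.0253), against 6.31% of all genes. Of 8 further carriers and partners of lactate and pyruvate, only Slc16a7 (MCT2) was called for the supernatant, lower in macrophages at a difference of −0.9 (adjusted p = 0.00453). In media the lines were below macrophages in 4 of these 8, against 22.4% of all genes, with Emb, a partner protein of the carriers, at −8.33 (SE 0.21, adjusted p = 8.21e-20), Slc16a7 at −3.43 (SE 0.181, adjusted p = 1.16e-13) and the mitochondrial pyruvate carrier Mpc1 at −1.8 (SE 0.107, adjusted p = 1.04e-12).

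The list of pyruvate dehydrogenase partners gave 1 call of 9 with supernatant in each kind of cell. It also held pyruvate carboxylase, a separate enzyme, which was the only call in macrophages. Pdpr, a regulator of the phosphatase, was lower in C57epi.1 (−0.41, adjusted p = 0.00956). The phosphatase Pdp1, which turns the enzyme back on, was higher in Bm12.4 (0.64, adjusted p = 0.000602), and pyruvate carboxylase Pcx was higher in macrophages (0.75, adjusted p = 0.0364). Of 9 pentose phosphate genes, C57epi.1 had Rpe higher (0.72, adjusted p = 0.00535) and Pgls lower (−0.52, adjusted p = 0.000548), Bm12.4 had Tkt lower (−0.47, adjusted p = 0.000696), and macrophages had Pgls (−0.37, adjusted p = 0.0148) and Tkt (−0.32, adjusted p = 0.0142) lower. Of 18 glycogen and gluconeogenesis genes, 1 was lower in C57epi.1, against 10.4% of all genes, and 0 were called in Bm12.4 (3 at an unadjusted p under 0.05). In macrophages 1 was higher, against 6.13% of all genes, and 4 were lower, against 6.31%. Liver-type glycogen phosphorylase Pygl was at −0.59 there (SE 0.094, adjusted p = 9.21e-05).

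Of 13 regulators of glycolytic genes, 3 rose in C57epi.1, against 8.85% of all genes, and 1 fell, against 10.4%. Myc at 1.18 (adjusted p = 0.00469), Rela at 0.65 (adjusted p = 7.52e-06) and Mlxip at 0.49 (adjusted p = 0.000428) were among the rises. In Bm12.4, 2 rose, against 4.54% of all genes, Mlxip at 0.7 (adjusted p = 1.06e-05) and Rela at 0.33 (adjusted p = 0.0169). In macrophages 0 were called, with 3 at an unadjusted p under 0.05. Arrdc4, a glucose-sensing target that restrains uptake, was lower in C57epi.1 than in Bm12.4 at a difference of −4.44 (SE 0.268, adjusted p = 7.9e-12) in media, and Myc was higher by 1.03 (adjusted p = 0.00925). Of the proliferation genes, 4 of 8 fell in macrophages with supernatant, against 6.31% of all genes, with Ccnb2 at −2.06 (adjusted p = 0.000159). In C57epi.1 and Bm12.4 limma called 0 of 8, and none had an unadjusted p under 0.05 in either line.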

How the data were processed

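RNA from 24 samples was hybridised to Affymetrix whole-transcript arrays, with 100 ng of total RNA per array, per the labels' protocols. The deposited table gives a log2 value for each probe set and array. Per the submitters' processing notes, the authors used GCOS, Partek 6.2 and RMA, which aligns array distributions and can shrink differences that affect most genes. The sources used here give neither the order of these steps nor the versions of GCOS and RMA. Of 28853 probe sets, 21789 named 1 gene, 1621 several and 5443 none, by the platform annotation checked against RefSeq. The brightest probe set per single symbol gave 19938 genes.

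A mean per group was fitted over all 24 arrays with limma 3.58.1 (R 4.3.3; lmFit, eBayes defaults, 18 residual degrees of freedom). The 9 contrasts were two-sided, with Benjamini-Hochberg adjustment over all genes and a call at an adjusted p under 0.05. The code was tested on simulated data. Array numbers in the text are the replicate numbers of the labels. Same-numbered arrays of both conditions deviated together in Bm12.4 (correlations across genes 0.683, 0.226, 0.666 and 0.42), but not for every number in C57epi.1 (0.239, −0.143, 0.168 and 0.396) or macrophages (0.118, 0.037, −0.134 and 0.074). In Bm12.4, arrays of unlike number within 1 and 2, or within 3 and 4, gave similar values (0.643 for supernatant 1 with media 2, 0.595 for supernatant 3 with media 4), so the split was by pair of numbers. In C57epi.1, supernatant array 1 went with media array 2 (0.481) more than with media array 1. The model had no block, since the labels do not say that numbers mark shared cultures, and with replicate number as a block the count for Bm12.4 was 5.

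Members of at least 2-fold called change, and Hk2, Pfkfb3, Slc2a1, Ldha, Pdk1, Pdk4 and Slc16a3, were given array by array. G6pdx, named in the same rule, was not analysed here. From other lists, up to 4 of the largest called changes were named. Members and lists were chosen with earlier results of these data known.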

Additional observations from a re-analysis of the deposited data

Results flagged for a closer look

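In 14 of 180 sets of 4 arrays (7.78%), 1 array stood apart from the other 3 by more than Dixon's criterion allows. Chance gives about 1 in 20. In C57epi.1 with supernatant, array 1 was low for Slc2a1 (10.77), Aldoa (12.49) and Ldha (12.7) and high for Dlat (9.53), while array 2 was high for Slc16a1 (10.28) and array 3 for Pdk4 (3.32). In C57epi.1 media, array 2 was low for Pfkp (9.5) and Eno2 (5.02), and array 4 was high for Pdk1 (4.67). In Bm12.4, Aldoc was low on supernatant array 1 (4.81) and Eno2 high on media array 3 (4.59). In macrophage media, Slc2a3 was low (6.79) and Pfkp high (10.12) on array 1, and Slc2a1 was low on array 2 (10.93). Of the 14, 5 fell on C57epi.1 arrays that were also low in genes of hypoxia-inducible factor, in the direction of that list.

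For 5 members the supernatant effect differed between kinds of cell by the test of the difference itself, Eno2 in both such tests. Between the mean of the lines and macrophages these were Hk3 (−1.36), Slc16a3 (−0.77), Eno2 (0.68) and Ldhb (1.36). Between C57epi.1 and Bm12.4 they were Pfkfb3 (1.94) and Eno2 (0.78), on the log2 scale. Levels could not be told from background for Hk3 in both lines, Eno2 in Bm12.4 and Ldhb in C57epi.1 with supernatant. Those of Slc16a3 lay near the array medians in both lines.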

How the results depend on the processing

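Counts of called members, over both directions together, kept within 1.5 times of the reported ones under a trended, robust prior, quantile normalization and both other choices of probe set. By direction, quantile normalization gave 9 members higher in the lines than in macrophages in media, against 5 as deposited. For the supernatant in macrophages (5 called), the count was 17 with these 8 arrays alone, 12 with a replicate block by pair of numbers, 9 with replicates 1 and 2 only and 10 with replicates 3 and 4 only. In C57epi.1 (8 called) it was 5 with replicates 1 and 2 and 13 with replicates 3 and 4. In Bm12.4 (4 called) it was 0 with its own arrays and 11 with replicates 3 and 4. For C57epi.1 against Bm12.4 in media (20 called) it was 11 with these arrays alone and 12 with replicates 1 and 2. For the difference of supernatant effects between lines and macrophages (4 called) it was 7 with the filter on low values, 7 with the replicate block, 11 with the block by pair, 9 with replicates 1 and 2 and 11 with replicates 3 and 4. For that between C57epi.1 and Bm12.4 (2 called) it was 1 with these arrays alone, 1 with replicates 1 and 2 and 6 with replicates 3 and 4. The share of all genes called can move with the setting too. For C57epi.1 against Bm12.4 in media, 8.29% were higher and 9.78% lower within replicates 1 and 2. Within replicates 3 and 4 these shares were 16.4% and 15.6%. The counts by setting are thus no result about the members. Leaving out 1 array at a time, counts ran from 6 to 9 in C57epi.1, 3 to 5 in Bm12.4 and 4 to 6 in macrophages, from 16 to 20 and 19 to 24 for lines against macrophages in media and supernatant, from 15 to 22 and 18 to 21 for C57epi.1 against Bm12.4, and from 4 to 6 and 1 to 3 for the 2 differences of effects. The replicate block added Pfkfb2 in Bm12.4 (−0.49, adjusted p = 0.0371). Quantile normalization reversed Pkm (0.062) and Ldha (0.029) for lines against macrophages in supernatant. Apart from the arrays in the fit, which change the shared spread, the cause was not tested. RefSeq-first probe sets and the joint omission of 2 C57epi.1 arrays were chosen after seeing the data. With 4 arrays per group and no detection p-values, small changes, and changes of low genes such as Pdk4, may go undetected.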
